A study of Homo sapiens with 9 samples.

Results

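The 10 genes described here encode forkhead transcription factors, FOXC1, FOXC2, FOXD1, FOXF1, FOXF2, FOXP1, FOXP2, FOXO1, FOXO3 and FOXL2. They were taken by name from the 18970 gene symbols in the count tables, and every column of both tables was used. The cells were cranial neural crest cells (CNCCs) at passage 4, derived from the human embryonic stem cell line H9. Both SOX9 alleles carried an FKBP12-F36V degron with mNeonGreen and V5, in the 0h group as in the others, and the cells came from 2 clones, S9CC13 and S9CC47. The compound dTAGV-1 (500 nM) leads to degradation of the tagged SOX9 protein. The groups were 0h (vehicle only), 3h and 24h of dTAGV-1, with SOX9 labelled as 100% in the first group and 0% in the others. Per group there was 1 library from each of 3 cultures (S9CC13_R6, S9CC47_R5 and S9CC47_R6, named by clone and differentiation batch), so that n = 3 throughout. Cells without the tag were not analysed here, so what dTAGV-1 does apart from SOX9 depletion cannot be told apart from the depletion.

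New RNA was marked by SLAM-seq labelling, in which cells took up 4-thiouridine (100 uM) for 2 h, beginning 1 h after dTAGV-1 for the 3h group and 22 h after it for the 24h group, and reads from 3′ ends that carried a T>C conversion were counted apart. T>C reads therefore sample RNA made in the labelling window, and total reads sample all RNA of the gene. Unconverted reads (total minus T>C reads) hold RNA made earlier and those reads of new RNA that carry no conversion. The proportion of the 2 was not measured here. Values are reads divided by library size factors (normalized reads), and 3 values of 1 time are always given in the order S9CC13_R6, S9CC47_R5, S9CC47_R6.

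Forkhead factors bind DNA through a winged-helix domain that the whole family shares. In crest-derived mesenchyme of the head, FOXC1 and FOXC2 act in the development of the anterior eye and skull, while FOXD1, FOXF1 and FOXF2 are known as genes that respond to hedgehog signals from neighbouring epithelium. FOXO factors are held in the cytoplasm when insulin or IGF signalling activates AKT, and enter the nucleus when that signal is low. FOXP factors form dimers with one another and mostly repress transcription.

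Only part of the group was transcribed at a measurable level in these cells. FOXC1, FOXC2, FOXP1, FOXP2, FOXO1 and FOXO3 had reads in 9 of 9 libraries, and these 6 of 10 genes reached 1 CPM, a count relative to the library total, in at least 3 libraries and were tested in T>C and total reads. FOXD1, FOXF1, FOXF2 and FOXL2 had at most 8 total reads in any library and were not tested. Reaching 1 CPM shows that a gene was detected and not that it has a part in crest mesenchyme. FOXC2 had too few unconverted reads, which left 5 genes for that measure.

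Library totals ranged from 16955633 to 28782678 total reads (median 21356401) and from 3130673 to 5475800 T>C reads (median 3957989). Of the markers of crest mesenchyme, 16 of 16 were detected, with a summed level of 4635 to 4752 CPM at 0h, 5041 to 5126 at 3h and 5967 to 6562 at 24h. MSX1 (594 to 1553 CPM) and NR2F1 (884 to 1095) reached the highest levels in that sum. In total reads 4 of the 16 were called higher and 2 lower at 3h (1.89% of all genes called). At 24h 8 were called higher and none lower (15% of all genes called). The summed level of pluripotency markers was 350.4 to 415 CPM at 0h and 282 to 307 at 24h, with TDGF1 at 0 in every library. LIN28A (241 to 374 CPM) and DPPA4 (34.2 to 44.6 CPM) made up most of that sum, while POU5F1 reached at most 0.0374 CPM, NANOG 0.203 and SOX2 0.936. The summed level of neural markers was 89.5 to 96.9 CPM at 0h and 63.3 to 84.6 at 24h, with SOX1 and HES5 at 0. Most of that sum came from TUBB3 (54.6 to 89.3 CPM) and DCX (7.46 to 17.2), while PAX6 reached at most 0.183. The summed level of Schwann cell and melanocyte markers was 14.2 to 20.0 CPM at 0h, 9.47 to 13.9 at 3h and 3.16 to 4.58 at 24h, with TYR at 0. Over the libraries ERBB3 ranged from 0.363 to 13.4 CPM, PMEL from 0.903 to 2.01 and MITF from 0.786 to 1.73, and SOX10 reached at most 0.153. Endothelial markers went from 18.3 to 29.0 CPM at 0h to between 9.97 and 15.3 at 24h, with SOX17 at 0. Of these 9 markers 2 reached 1 CPM in 3 or more libraries, ERG (8.33 to 25.2 CPM) and TIE1 (0.895 to 4.34). PECAM1, CDH5, KDR and VWF reached at most 0.272, 0.112, 0.468 and 0.187 CPM. Epithelial markers went from 3.09 to 3.89 CPM at 0h to between 1.56 and 2.54 at 24h, with KRT14 and GRHL2 at 0. Among them KRT8 and KRT18 reached at most 1.45 and 2.96 CPM, and EPCAM and CDH1 at most 0.328 and 0.0518. The part of these shifts in the changes below was not tested. In a bulk library, fewer cells of a type and less RNA per cell cannot be told apart. The degron acts on SOX9 protein, so RNA levels of SOX9 do not check the labels. Its RNA had 9789 ± 258 normalized T>C reads (SD, n = 3) before dTAGV-1, 16838 ± 1687 after 3h and 21449 ± 1885 after 24h.

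The promoters of the 3 genes that fell are shown with that of FOXP1, which was not called, so that their letters can be compared. Each sequence runs from 250 bases before to 50 bases after a RefSeq transcript start (GRCh38.p14), 5′ to 3′ on the gene's strand, and where a gene had several starts the first entry is given. Capitals mark matches on either strand to ACAAT (the core of SOX sites), GTAAACA (a forkhead core) or CCAAT (the CCAAT box). The windows are chr6:1609665-1609964 (+) for FOXC1, chr13:40666592-40666891 (-) for FOXO1, chr6:108559575-108559874 (+) for FOXO3 and chr3:71583679-71583978 (-) for FOXP1.
FOXC1: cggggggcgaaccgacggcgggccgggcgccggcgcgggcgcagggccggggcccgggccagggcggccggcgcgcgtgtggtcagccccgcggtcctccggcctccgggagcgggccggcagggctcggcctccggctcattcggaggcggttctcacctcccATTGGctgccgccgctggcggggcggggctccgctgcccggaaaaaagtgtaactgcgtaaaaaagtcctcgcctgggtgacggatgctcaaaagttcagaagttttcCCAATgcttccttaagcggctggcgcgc
FOXO1: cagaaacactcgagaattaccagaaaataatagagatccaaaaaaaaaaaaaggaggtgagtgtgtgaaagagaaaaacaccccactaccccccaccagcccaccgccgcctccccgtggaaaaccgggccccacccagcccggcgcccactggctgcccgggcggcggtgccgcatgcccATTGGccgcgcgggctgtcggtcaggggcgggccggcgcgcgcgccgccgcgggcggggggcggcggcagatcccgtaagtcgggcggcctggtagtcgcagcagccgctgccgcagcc
FOXO3: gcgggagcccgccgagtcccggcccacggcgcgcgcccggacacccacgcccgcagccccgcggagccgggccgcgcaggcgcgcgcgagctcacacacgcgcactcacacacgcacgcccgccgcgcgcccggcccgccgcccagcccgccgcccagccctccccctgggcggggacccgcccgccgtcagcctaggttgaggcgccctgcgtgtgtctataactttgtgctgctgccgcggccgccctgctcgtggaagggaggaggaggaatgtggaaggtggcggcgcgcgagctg
FOXP1: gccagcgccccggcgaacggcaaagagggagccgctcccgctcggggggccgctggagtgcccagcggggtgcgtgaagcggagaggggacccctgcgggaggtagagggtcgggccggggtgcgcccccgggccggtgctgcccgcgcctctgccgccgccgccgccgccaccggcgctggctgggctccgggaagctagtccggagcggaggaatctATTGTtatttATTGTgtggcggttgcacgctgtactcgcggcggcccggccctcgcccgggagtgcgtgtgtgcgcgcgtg

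The FOXC1 window held 2 CCAAT boxes and the FOXO1 window 1, and neither held the SOX or the forkhead core. The FOXO3 window held none of the 3 motifs, and the FOXP1 window held 2 SOX cores. These counts depend on the start chosen. Of the other FOXO3 entries, windows 2 and 3 held no SOX core and window 4 held 1. Of the other FOXP1 entries, windows 2 and 5 held none, and windows 3, 4 and 6 held 1, 2 and 1. Whether these letters have a part in the changes was not tested. Among 35116 promoter windows of this length, 27.4% held the SOX core, 3.42% the forkhead core and 34.6% the CCAAT box. All 4 windows shown were rich in G and C, at 72.7% (FOXC1), 68% (FOXO1), 78.3% (FOXO3) and 75% (FOXP1), against a median of 58.7% over all windows. Of the 10 genes, 8 had a promoter in the table used.

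FOXC1, a regulator of anterior eye and skull development, was lower in all 3 cultures at 24h and changed little at 3h. The gene has 1 exon (hg38 chr6:1609915-1613897, + strand), and no other annotated gene overlaps it. The 0h libraries held 1600.4, 1103 and 1397 normalized T>C reads, the 3h libraries 1619, 1133 and 1308, and the 24h libraries 962, 697 and 858. The 24h libraries lay below every 0h library (as in 11.5% of all genes) and every 3h library (9.32%), while the 3h and 0h libraries overlapped. The fitted log2 fold change of T>C reads was -0.62 at 24h against 0h (SE 0.0958, 95% interval -0.81 to -0.43, DESeq2 adjusted p = 1.92e-08), a level 0.651 times that at 0h. At 3h it was -0.06 (interval -0.23 to 0.12, DESeq2 adjusted p = 0.998), and 24h against 3h gave -0.56 (SE 0.103, DESeq2 adjusted p = 2.78e-05). The 3h and 24h comparisons share the 0h libraries.

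Total reads of FOXC1 also fell at 24h. The 0h libraries held 3664, 2475 and 3627 normalized reads, the 3h libraries 3663, 2650.0 and 3184, and the 24h libraries 2172, 1641 and 2076. S9CC47_R5 had the lowest level of the 3 cultures at each time, and all 24h libraries lay below all others. In 15.1% of all genes the 24h libraries lay below every 0h library in total reads. The log2 fold change of total reads was -0.67 at 24h against 0h (SE 0.0799, 95% interval -0.83 to -0.51, DESeq2 adjusted p = 1.11e-14) and -0.06 at 3h (DESeq2 adjusted p = 0.97). Unconverted reads changed by -0.70 on the log2 scale at 24h (SE 0.0975, DESeq2 adjusted p = 1.17e-10). The total read call was lost without S9CC13_R6 (-0.53, DESeq2 adjusted p = 0.142) or S9CC47_R6 (-0.61, DESeq2 adjusted p = 0.455), and the unconverted call without S9CC13_R6 (-0.50, DESeq2 adjusted p = 0.332), but none of these with no surrogate variable. Of 19 alternative settings, 18 kept the call of lower T>C reads at 24h, with log2 fold changes from -0.72 to -0.56. The exception left out S9CC13_R6 (-0.64, DESeq2 adjusted p = 0.184), and without the surrogate variable the call held there too (-0.68, DESeq2 adjusted p = 0.00406).

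FOXC2, the paralogue of FOXC1, had few reads and went the other way, without passing the test. It has 1 exon (hg38 chr16:86566829-86569728, + strand) that overlaps the antisense RNA FOXC2-AS1. Whether the counting used the strand is not given in the sources used here, so reads of the 2 cannot be told apart. Its normalized T>C reads numbered 8.34, 19.3 and 4.57 (0h), 11.9, 17.3 and 12.8 (3h) and 21.8, 20.8 and 21.5 (24h). All 3 libraries at 24h lay above all 3 at 0h, as in 11% of all genes, but S9CC47_R5 began near the 24h level. The log2 fold change at 24h against 0h was 1.06 with a wide interval of -0.15 to 2.28 (DESeq2 adjusted p = 0.474). Total reads went from 20.2, 35.9 and 8.52 to 37.7, 33.5 and 37.8, and the groups overlapped (log2 fold change 0.85, interval -0.13 to 1.82, DESeq2 adjusted p = 0.295). Raw total counts ran from 11 to 46 per library, so a change of the size of FOXC1's was not detectable at this depth.

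Within each library the level of FOXC1 was set against that of its paralogue, whose part of the ratio rests on few reads. To each value 1 was added before the ratio was taken, which lowers the ratios most where FOXC2 had the fewest reads. The log2 ratio of FOXC1 to FOXC2 normalized T>C reads was then 7.42, 5.76 and 7.97 in the 0h libraries, 6.97, 5.95 and 6.56 in the 3h libraries, and 5.40, 5.00 and 5.26 in the 24h libraries. The 24h values lay below all others, so the levels of the pair stood closer at 24h, while S9CC47_R5 was higher at 3h than at 0h. The mean ratio went from 7.05 ± 1.15 before dTAGV-1 to 5.22 ± 0.201 after 24h (SD, n = 3), and no test was run on it. For total reads the mean log2 ratio was 7.36 ± 1.26 at 0h and 5.71 ± 0.124 at 24h.

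**Figure D1:**
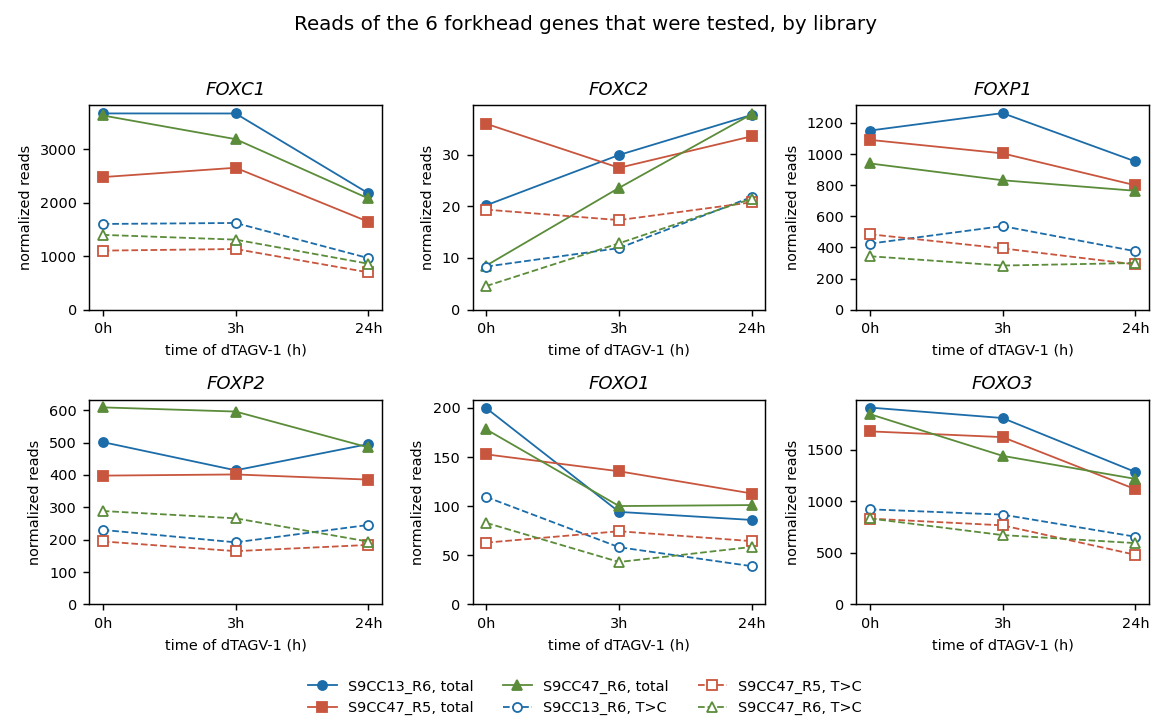
Normalized total reads (filled symbols, solid lines) and T>C reads (open symbols, dashed lines) of the 6 tested genes, on linear axes from 0, against time of dTAGV-1, with 1 line per culture. FOXC1 and FOXO3 drop in each culture at 24h (FOXC1 total reads to between 1641 and 2172), while FOXO1 total reads drop at 3h in S9CC13_R6 and S9CC47_R6 and less in S9CC47_R5.

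FOXD1, FOXF1 and FOXF2, named above as genes that respond to hedgehog signals, were close to silent. FOXF1 (hg38 chr16:86510527-86515422, + strand, 2 exons) had no read in 7 of 9 libraries, and the reads it had were 2 in S9CC13_R6 and 3 in S9CC47_R6, both at 24h. FOXF2 (hg38 chr6:1389576-1395603, + strand, 2 exons) likewise had reads only at 24h, 1 in S9CC47_R5 and 5 in S9CC47_R6. Counts this low are at or near the 3 reads that a count of 0 allows, which corresponds to 0.104 to 0.177 CPM across libraries, so no difference between times was measurable. FOXD1 (hg38 chr5:73444827-73448777, - strand, 1 exon, overlapped by the antisense RNA FOXD1-AS1) had 0 to 6 total reads in each library and 25 in all. S9CC13_R6 held 6, 5 and 5 of these at 0h, 3h and 24h, and the other cultures held at most 3 at any time. FOXL2, a regulator of ovary and eyelid development (hg38 chr3:138944224-138947137, - strand, 1 exon), had 21 reads over 7 libraries, of which 8 were in S9CC13_R6 at 24h.

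The hedgehog pathway itself was transcribed. Of 13 tested genes in a list of its ligands, receptors and effectors, 2 rose in T>C reads at 24h and none fell (4.98% of all genes called), and the median log2 fold change was 0.28, against 0.00 over all 12037 genes tested. GLI3, a transcription factor at the end of the pathway, rose from 1303 ± 284 to 1657 ± 54.1 normalized T>C reads (log2 fold change 0.31, SE 0.101, DESeq2 adjusted p = 0.0617). The change of GLI3 was 0.14 without S9CC13_R6 and not called. DISP1, which releases the ligand from the cells that make it, rose from 630.1 ± 130.2 to 985 ± 157 (log2 fold change 0.69, SE 0.121, DESeq2 adjusted p = 1.98e-06). The co-receptor gene CDON was at 891 ± 31.2 and 898 ± 122 (log2 fold change 0.03, DESeq2 adjusted p = 0.958). In total reads 6 of the 13 rose at 24h and none fell, where 15% of all genes were called.

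FOXP1 and FOXP2, repressors that can dimerize with one another, did not pass the test at either time. FOXP1 spans chr3:70954693-71583978 (hg38, - strand, 21 exons), and its last exon overlaps an unnamed protein-coding gene on the same strand, so reads may be shared. In normalized T>C reads, the 0h libraries held 424, 485 and 344, the 3h libraries 537, 394 and 284, and the 24h libraries 375, 291 and 300.1. The cultures moved in different directions at 3h and the groups overlapped at both times. The log2 fold change was -0.17 at 3h (interval -0.51 to 0.16, DESeq2 adjusted p = 0.979) and -0.20 at 24h (interval -0.55 to 0.15, DESeq2 adjusted p = 0.724). Total reads went from 1151, 1091 and 939.8 before dTAGV-1 to 952, 799 and 764 after 24h, lower in each culture (log2 fold change -0.22, interval -0.45 to 0.02, DESeq2 adjusted p = 0.261). With the culture as a block, which pairs the libraries of a culture, total reads of FOXP1 were called lower at 24h (-0.34, DESeq2 adjusted p = 0.0486).

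FOXP2 (hg38 chr7:114086327-114693772, + strand, 17 exons), known for its part in speech and language, had overlapping T>C reads between times. Between cultures its mean log2 difference in T>C reads was -0.44 for S9CC47_R5 minus S9CC47_R6 and -0.15 for S9CC13_R6 minus S9CC47_R6. Neither was tested. Its normalized T>C reads numbered 230.3, 195 and 289 (0h), 192, 165 and 266 (3h) and 246, 184 and 194 (24h). The log2 fold change was -0.18 at 3h (interval -0.54 to 0.18, DESeq2 adjusted p = 0.985) and -0.24 at 24h (interval -0.62 to 0.13, DESeq2 adjusted p = 0.669). These intervals leave room for a fall as large as that of FOXO3. In total reads the log2 fold change at 24h was -0.22 (interval -0.50 to 0.06, DESeq2 adjusted p = 0.369).

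Cultures could be compared only as 3 libraries of 1 culture each, with no test of clone or batch. FOXP1 was higher in S9CC13_R6 than in S9CC47_R6, with 375 to 537 against 284 to 344 normalized T>C reads and a mean log2 difference of 0.51. Ranges that do not overlap were also seen in 10.1% of all genes between these cultures. In total reads the difference of FOXP1 was 0.40, where 9.83% of genes did not overlap. FOXP2 total reads were 386 to 402 in S9CC47_R5 and 485 to 609 in S9CC47_R6 (mean log2 difference -0.50, background 10.6%). The ranges of FOXC1, FOXC2, FOXO1 and FOXO3 overlapped in both comparisons.

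FOXO3, a factor restrained by insulin and IGF signalling, was lower in new and total RNA at 24h in all 3 cultures. It spans chr6:108559835-108684774 (hg38, + strand, 3 exons). The 0h libraries held 922, 832 and 833 normalized T>C reads, the 3h libraries 871, 767 and 672, and the 24h libraries 656, 481 and 594. The 24h libraries lay below every 0h library (as in 11.5% of all genes) and every 3h library (9.32%). The log2 fold change was -0.52 at 24h (SE 0.125, interval -0.76 to -0.27, DESeq2 adjusted p = 0.00218), a level 0.699 times that at 0h, and -0.20 at 3h (interval -0.43 to 0.03, DESeq2 adjusted p = 0.807). The call held in 15 of 19 settings, with log2 fold changes from -0.66 to -0.32. It was lost when any 1 culture was left out of the same model, at -0.66 without S9CC13_R6, -0.32 without S9CC47_R5 and -0.64 without S9CC47_R6. With no surrogate variable it was lost only without S9CC47_R5 (-0.49, DESeq2 adjusted p = 0.158).

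Total reads of FOXO3 stood at 1909, 1678 and 1845 (0h), 1807, 1622 and 1441 (3h) and 1284, 1117 and 1217 (24h). Each culture fell from 0h to 3h and again to 24h, but the 3h and 0h groups were not separated by the test (log2 fold change -0.19, interval -0.36 to -0.01, DESeq2 adjusted p = 0.525). At 24h the log2 fold change was -0.53 (SE 0.0943, DESeq2 adjusted p = 1.57e-06), and unconverted reads changed by the same -0.53 (DESeq2 adjusted p = 5.53e-05). Without S9CC13_R6 the total read call was lost (-0.49, DESeq2 adjusted p = 0.605) and without S9CC47_R6 likewise (-0.58, DESeq2 adjusted p = 1), while neither was lost with no surrogate variable. The unconverted call was lost without S9CC13_R6, with the surrogate variable (-0.35) and with none (-0.59, DESeq2 adjusted p = 0.143). FOXO3 shares sequence with the copy FOXO3B, in 37.4% of 7247 windows of 50 bases along its transcript and in 0 windows of its last 1000 bases, where 3′ end reads fall.

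FOXO1, a paralogue under the same control, was the one gene of the 6 called at 3h, in total reads only. It spans chr13:40555667-40666641 (hg38, - strand, 3 exons), and its last exon overlaps an unnamed long noncoding RNA on the same strand. The 0h libraries held 199.9, 153 and 178 normalized total reads, the 3h libraries 94.2, 136 and 100.1, and the 24h libraries 86.0, 113 and 101. All 3h libraries lay below those of 0h (as in 4.15% of all genes), as did all 24h libraries (15.1%), and S9CC47_R5 moved least. The log2 fold change of total reads was -0.70 at 3h (interval -1.14 to -0.26, SE 0.224, DESeq2 adjusted p = 0.0937) and -0.83 after 24h (interval -1.29 to -0.37, SE 0.235, DESeq2 adjusted p = 0.00729). Between 3h and 24h it was -0.13 (DESeq2 adjusted p = 0.9).

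The 3h call of FOXO1 stood close to the threshold and held in 5 of 18 settings. With the culture as a block it was -0.70 (DESeq2 adjusted p = 0.242), and it was -0.44 without S9CC13_R6, -0.96 without S9CC47_R5 and -0.21 without S9CC47_R6, none of them called. The 24h call held in 12 of 18 settings, and was -0.27 without S9CC13_R6 and -0.41 without S9CC47_R6. T>C reads of FOXO1 stood at 109, 62.9 and 83.0 (0h), 58.2, 74.5 and 43.2 (3h) and 38.9, 64.4 and 58.5 (24h). S9CC47_R5 was level or higher where the other cultures were lower, so the groups overlapped (log2 fold change -0.60 at 3h, interval -1.23 to 0.03, DESeq2 adjusted p = 0.743, and -0.56 at 24h, interval -1.22 to 0.10, DESeq2 adjusted p = 0.493). Unconverted reads numbered 92.0, 88.1 and 93.8 (0h), 42.0, 62.5 and 56.5 (3h) and 46.6, 44.9 and 38.0 (24h), lower in every culture (log2 fold change -1.11 at 24h, SE 0.304, DESeq2 adjusted p = 0.00596). This call held in 12 of 18 settings, and was lost with only the 6 libraries compared (-0.95) and without S9CC13_R6 (-0.97), S9CC47_R5 (-1.23) or S9CC47_R6 (-0.99).

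**Figure D2:**
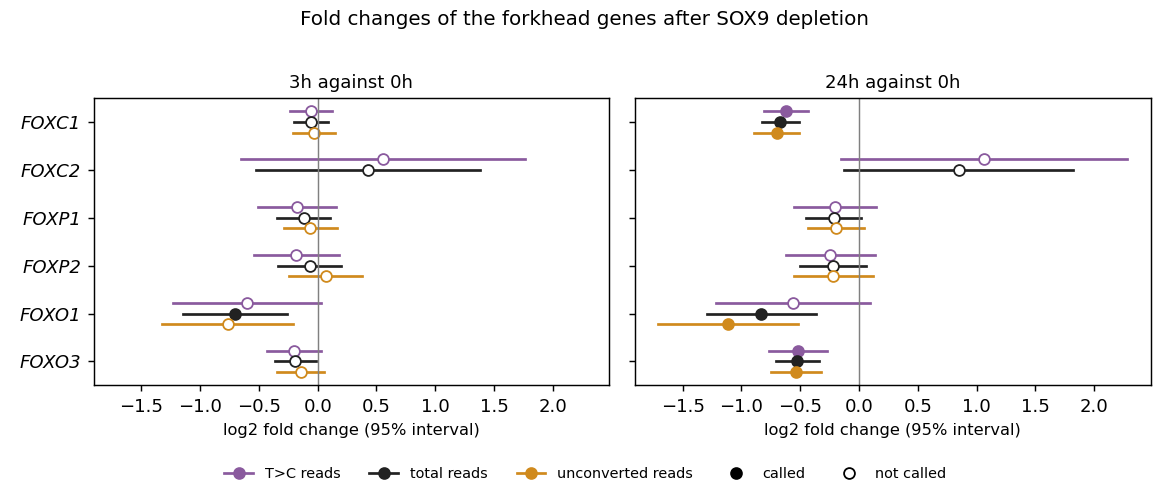
Log2 fold changes with 95% intervals of the 6 tested genes at 3h (left) and 24h (right) against 0h, for T>C, total and unconverted reads. Filled points are called at an adjusted p under 0.1, open points are not, and FOXC2 has no unconverted value. At 24h FOXC1 and FOXO3 are filled in all 3 measures and FOXO1 in total and unconverted reads, and the FOXC2 intervals are the widest.

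By count, 2 of the 6 tested genes were lower in T>C reads at 24h and none higher, where 4.98% of all genes were called and 2.59% were called lower. At 3h none of the 6 was called in T>C reads by DESeq2 or edgeR, with 0 at an unadjusted p under 0.05, against 1.79% of all genes. In total reads 1 of 6 was lower at 3h (1.89% of all genes called, 0.777% lower) and 3 of 6 at 24h (15% called, 7.85% lower). In unconverted reads 3 of 5 were lower at 24h (12.1% called, 6.27% lower). Between 3h and 24h, FOXC1 was called lower in T>C reads (1.14% called), and FOXC1 and FOXO3 in total (5.39% called) and unconverted reads (4.59% called). Ranges that did not overlap at 24h were seen in T>C reads for 2 genes that were lower (11.5% of all genes) and 1 that was higher (11%), and in total reads for 3 that were lower (15.1%). The median log2 fold change of the 6 at 24h was -0.38 in T>C reads and -0.37 in total reads, against 0.00 over all genes in both.

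The rest of the forkhead family gives the setting for these values. Of 33 other forkhead genes in the tables, 10 were tested in total reads and 12 in T>C reads, and the others had at most 36 total reads in any library. FOXD2, a factor of crest and mesenchyme, was the one gene of the 12 called in T>C reads, where 1.79% (3h) and 4.98% (24h) of all genes were called. Its T>C reads went from 384 ± 80.5 to 234 ± 31.6 after 3h and 105 ± 34.2 after 24h (SD, n = 3). At 24h its log2 fold change was -1.74 with an SE of 0.217 (DESeq2 adjusted p = 4.96e-13), and the change at 3h was -0.78 with an SE of 0.202 (DESeq2 adjusted p = 0.0103). The 3h call of FOXD2 was lost when any culture was left out (-0.48 without S9CC13_R6, -0.93 without S9CC47_R5 and -1.05 without S9CC47_R6), and the 24h call held in all 19 settings.

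FOXO4 and FOXP4, relatives of the FOXO and FOXP genes above, were called lower at 24h in total reads, and neither was called in T>C reads. With FOXD2, 3 of the 10 other forkhead genes tested in total reads were lower at 24h (15% of all genes called, 7.85% lower). FOXO4 total reads went from 190.4 ± 35.9 to 96.4 ± 28.1 (log2 fold change -0.85, DESeq2 adjusted p = 0.00114), and its T>C reads went from 28.3 ± 17.8 to 10.9 ± 3.48 (-1.32, DESeq2 adjusted p = 0.317). FOXP4 total reads went from 672 ± 153 to 360.5 ± 38.5 (log2 fold change -0.80, DESeq2 adjusted p = 1.57e-06). Its T>C reads went from 80.7 ± 10.4 to 55.3 ± 6.28 (-0.42, interval -0.97 to 0.12, DESeq2 adjusted p = 0.568), with no overlap, as in 11.5% of all genes. The FOXO4 call was lost without any 1 culture (-0.89 without S9CC13_R6, -0.70 without S9CC47_R5, -0.92 without S9CC47_R6) and the FOXP4 call without S9CC13_R6 (-0.52) or S9CC47_R6 (-0.71). The forkhead genes with the most T>C reads outside the 10 were FOXN3, FOXK2 and FOXJ3, whose log2 fold changes at 24h were -0.16, 0.10 and -0.06, none of them called. FOXD3, an early crest factor, had at most 1 read per library.

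**Figure D3:**
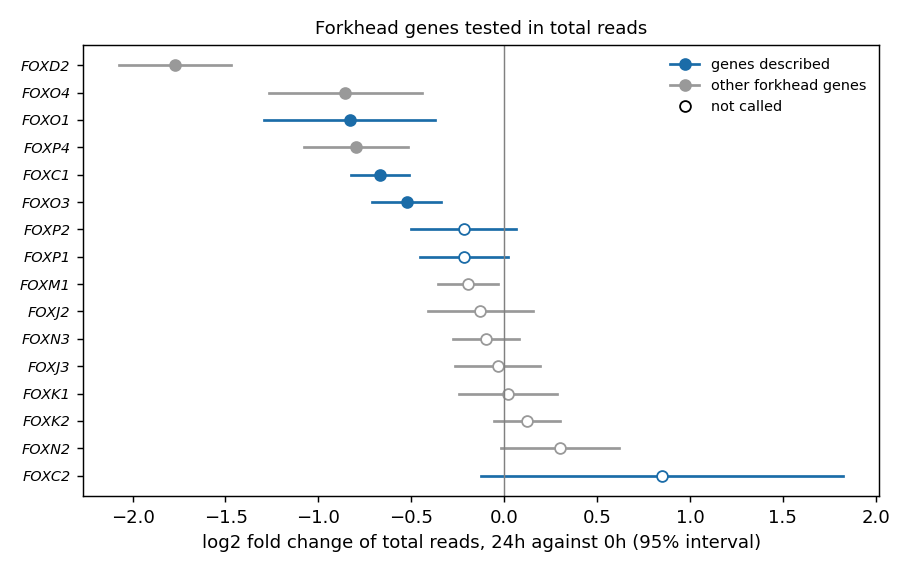
Log2 fold changes of total reads at 24h against 0h with 95% intervals, for the 16 forkhead genes tested in total reads, sorted by value. The genes described are in blue and the other forkhead genes in grey, and open points are not called. The 6 filled points lie left of 0, from FOXD2 (-1.77) to FOXO3 (-0.53), and FOXC2 (0.85) lies farthest right with an interval that crosses 0. Over all genes 15% were called in this comparison and 7.85% were called lower.

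Of the genes upstream of the FOXO factors in the insulin and IGF pathway, 22 were tested, and in T>C reads at 24h 2 rose and none fell (4.98% of all genes called). The median log2 fold change of this list was 0.03. In total reads 4 rose, among them IRS1, PIK3R1 and RICTOR, and AKT2, a kinase that phosphorylates FOXO factors, fell (log2 fold change -0.33, DESeq2 adjusted p = 0.000276), where 15% of all genes were called. PIK3R1, a regulatory subunit of PI3 kinase, went from 2421 ± 144 to 2840.3 ± 293 normalized T>C reads (log2 fold change 0.29, SE 0.085, DESeq2 adjusted p = 0.0242), a call lost with the culture as a block (0.23, DESeq2 adjusted p = 0.203) and without any 1 culture (0.24 to 0.34). IRS1, an adaptor of the insulin and IGF receptors, went from 105 ± 17.8 to 182 ± 33.9 (log2 fold change 0.73, SE 0.223, DESeq2 adjusted p = 0.0327), and this call too was lost without any 1 culture (0.57 to 0.88). YWHAB and YWHAE, which encode 14-3-3 proteins that bind phosphorylated FOXO, gave -0.21 and -0.22 and were not called in T>C reads.

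Most known FOXO target genes were not called. Of 25 tested, 1 fell and 2 rose in T>C reads at 24h (4.98% of all genes called) and 22 were not called, with a median log2 fold change of 0.12. CITED2, a transcriptional co-regulator, rose from 41.2 ± 8.84 to 150.4 ± 49.2 normalized T>C reads (log2 fold change 1.42, SE 0.283, DESeq2 adjusted p = 4.91e-05). SESN3, a stress-response gene, rose from 470 ± 44.9 to 725 ± 78.1 (log2 fold change 0.53, SE 0.122, DESeq2 adjusted p = 0.00103). Without any 1 culture these calls were lost, at 1.18 to 1.57 for CITED2 and 0.43 to 0.62 for SESN3. ERBB3, a receptor that also stands on the list of Schwann cell and melanocyte markers above, fell from 40.4 ± 4.86 to 1.64 ± 1.47 (log2 fold change -4.26, SE 0.861, DESeq2 adjusted p = 7.15e-05). In total reads CITED2, SESN3, CCNG1 and GADD45A rose and ERBB3 fell, of 23 tested (15% of all genes called). TXNIP, IRS2 and BBC3, the targets with the most T>C reads, gave 0.17, 0.14 and -0.14 and were not called. Reads measure RNA and not where a FOXO protein is in the cell, so they do not show FOXO activity.

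No gene around the 10 passed the test. Within 500 kb lay 38 other protein-coding genes of the tables, of which 25 were tested, and none was called at 3h or 24h in T>C or total reads by DESeq2 or edgeR. Of all genes, DESeq2 called 1.79% (3h) and 4.98% (24h) in T>C reads, and 1.89% and 15% in total reads. At an unadjusted p under 0.05 there were 0 in T>C reads at both times, 0 in total reads at 3h and 1 at 24h. Log2 fold changes of T>C reads at 24h ran from -0.93 to 0.37 among them. FOXC1 lies in a cluster on chromosome 6 with FOXF2 and FOXQ1, which had at most 5 and 2 total reads in any library. FOXC2 lies in a cluster on chromosome 16 with FOXF1 and FOXL1, at most 3 and 10 reads. GMDS, beside FOXC1, gave -0.49 in T>C reads at 24h (SE 0.304, DESeq2 adjusted p = 0.523). The neighbours with the most T>C reads were BTF3 near FOXD1 (log2 fold change 0.03 at 24h), KBTBD6 near FOXO1 (-0.06) and COPB2 near FOXL2 (0.01).

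The share of a gene's reads that carry a conversion depends on how much of its RNA was made in the labelling window and on the number of T bases read. At 0h it was 42.9% ± 4.10 for FOXC1, 40.0% ± 6.24 for FOXP1, 48.2% ± 3.73 for FOXP2, 48.0% ± 4.70 for FOXO1 and 48.5% ± 3.65 for FOXO3 (SD, n = 3). Over 11710 genes the median was 27.0%, with quartiles of 16.6% and 40.7%, and 72.7% (FOXP1) to 85.1% (FOXO1) of genes had a lower pooled share. The T content of the last 300 transcript bases was 31.0% to 34.7% for these genes, close to the median of 31.7%. Other forkhead genes ranged widely, from 11.2% ± 0.848 for FOXM1, a cell cycle factor, to 60.8% ± 2.08 for FOXJ2.

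The design could not call a difference in these shares, since the smallest p of the exact two-sided permutation test with 3 against 3 libraries is 0.1, so the values are given as a description. The 3h share was lower than at 0h in each culture for FOXP1 (mean 35.9% against 40.0%) and FOXP2. For FOXP1 it was 35.6%, 37.7% and 34.4% against 35.7%, 47.2% and 37.2% at 0h, nearly level in S9CC13_R6. The share was also lower in each culture for FOXD2, FOXJ2, FOXJ3, FOXK1, FOXK2, FOXN3 and FOXO4, but not for FOXM1, FOXN2 and FOXP4. For FOXP2 the 3h share was 38.8%, 39.3% and 45.1% against 44.5%, 51.9% and 48.2% at 0h (exact p = 0.2). Library-wide shares were also lower at 3h in the mean, at 17.9% against 19.1% at 0h, but not in each culture. They were 15.9%, 18.1% and 19.5% at 3h against 18.5%, 20.1% and 18.8% at 0h, higher in S9CC47_R6. For FOXO1 the share was 53.0%, 43.7% and 47.4% at 0h and 46.1%, 61.4% and 64.2% at 24h, up in 2 cultures and down in S9CC13_R6 (exact p = 0.3). The Wilson 95% interval of the S9CC13_R6 value at 24h, 36.1% to 56.4%, covers counting error only.

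**Figure D4:**
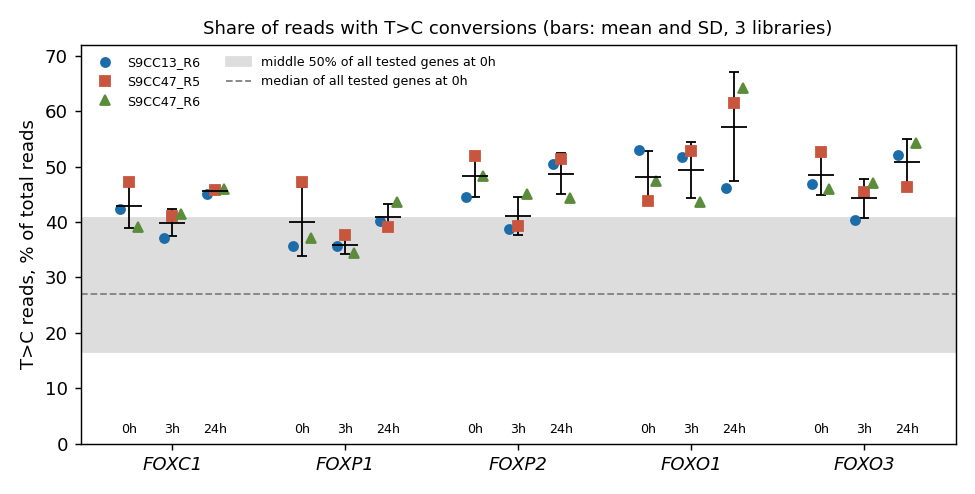
T>C reads as a percent of total reads for 5 genes in each library (symbols by culture), with the mean and SD of 3 libraries per time, on a linear axis from 0. The grey band holds the middle 50% of 11710 tested genes at 0h (16.6% to 40.7%) and the dashed line is their median (27.0%). All points lie above the line, the lowest at 34.4% (FOXP1, 3h, S9CC47_R6). Some points of FOXC1, FOXP1, FOXP2 and FOXO3 lie inside the upper part of the band, and the others lie above it.

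The genes whose normalized T>C reads followed the lower genes most closely over the 9 libraries were listed among 8671 genes, as a description, since libraries share cultures and times. For FOXC1 these were TUBB2B, a tubulin gene on the same chromosome arm (r = 0.986, log2 fold change -0.94 at 24h), and AMOT, an angiomotin gene (r = 0.984, -0.53). For FOXO3 they were the collagen genes COL4A2 (r = 0.978, -0.55, not called) and COL9A1 (r = 0.961, -1.07). For FOXO1 they were NUP88, a nuclear pore gene (r = 0.965, -0.22), and GON4L (r = 0.961, -0.37), neither called at 24h.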

How the data were processed

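Libraries were made with a QuantSeq 3′ kit (FWD), and per the methods adapter and poly(A) trimming of the first read preceded mapping and counting with slamdunk. The authors deposited raw counts of total reads and of T>C reads per gene symbol, with no normalization. The study names hg38 as its genome. The regions and strand setting of the counting are not given in the sources used here, and no molecular identifiers were stated. Wilson intervals of shares cover counting error only, and intervals of fold changes come from DESeq2 and include the spread between libraries. Annotation was GENCODE 44, and 118 of 18970 symbols matched none.

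All 9 libraries entered one DESeq2 (1.42.0, R 4.3.3) fit per measure on raw counts, with time, batch and 1 surrogate variable (sva 3.50.0) as terms. Protein-coding genes with 1 CPM or more in 3 or more libraries were tested, 12037 for T>C, 11710 for total and 11529 for unconverted reads. Calls needed an adjusted p under 0.1 (Benjamini-Hochberg over all genes tested), with independent filtering off. Scripts were tested on simulated data. Depth was 16955633 to 28782678 total reads per library.

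The 10 genes and all lists were chosen with earlier results of these data known. From each list, genes called in T>C reads and the 3 with the most T>C reads were named, and for each called member the 2 genes with the highest Pearson r on log2(normalized T>C reads + 1). FOXO4, FOXP4, FOXD3, FOXM1, FOXJ2, AKT2, RICTOR, CCNG1 and GADD45A were named after their values were seen. Cultures pair libraries across times, from the clone and batch in the titles (mean correlation of deviations 0.131 over 9 pairs, 0.0169 to 0.286). Whether the libraries of a culture came from separate dishes is not stated, so p-values measure the spread between these libraries. Alternatives were the culture as a block with and without a surrogate variable, no surrogate variable, no covariates, edgeR (4.0.16) with TMM, TMM inside DESeq2, size factors from total reads, 4 other gene filters, an adjusted p under 0.05, 6 libraries only and each culture left out. Leaving out cultures with no surrogate variable was added after seeing the data. Tables used python 3.11.15, numpy 2.4.6, pandas 2.3.3 and scipy 1.17.1.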

Additional observations from a re-analysis of the deposited data

Results flagged for a closer look

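The 24h and 3h changes share their 0h libraries, and for 2 genes the difference between them passed the DESeq2 test of 24h against 3h itself. For FOXC1 the log2 difference was -0.56 in T>C reads (1.14% of all genes called), -0.61 in total reads (5.39%) and -0.67 in unconverted reads (4.59%), lower in 3 of 3 cultures. The T>C call of FOXC1 was lost without S9CC13_R6 (-0.62), S9CC47_R5 (-0.50) or S9CC47_R6 (-0.73), though not with no surrogate variable, and its total and unconverted calls were lost without S9CC13_R6 (-0.51 in both). For FOXO3 the log2 difference was -0.34 in total reads and -0.39 in unconverted reads. The total read call of FOXO3 was lost without S9CC13_R6 (-0.31), S9CC47_R5 (-0.22) or S9CC47_R6 (-0.51). With no surrogate variable it was still lost without S9CC13_R6 or S9CC47_R5. The unconverted call of FOXO3 held in 12 of 18 settings. It was lost without S9CC13_R6 or S9CC47_R5, both with the surrogate variable and with none. T>C reads of FOXO3 gave -0.32, called with the culture as a block (-0.42, DESeq2 adjusted p = 0.0412).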

How the results depend on the processing

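Of 623 values of the described genes under alternatives, 545 kept their direction and their side of the threshold, 55 lost the call, 3 gained it and 20 changed direction, the last only where a culture was left out. Where a culture was left out, log2 fold changes of T>C reads ran at 3h from -0.06 to 0.03 for FOXC1 and -0.29 to 0.21 for FOXP1, and at 24h from -0.60 to 0.22 for FOXP1, -0.35 to 0.01 for FOXP2 and -0.97 to 0.19 for FOXO1. For total reads they ran at 3h from -0.09 to 0.11 for FOXC1, -0.41 to 0.92 for FOXC2, -0.15 to 0.01 for FOXP1 and -0.15 to 0.01 for FOXP2, at 24h from -0.43 to 1.61 for FOXC2, -0.47 to 0.04 for FOXP1 and -0.38 to 0.03 for FOXP2, and for FOXO1 at 24h against 3h from -0.21 to 0.17. None of these 13 values was called as reported.

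Counts of genes called over the whole table moved more. With the culture as a replicate block, which uses the pairing, 24h against 3h gave 530 (T>C, 137 reported), 1544 (total, 631 reported) and 1166 genes (unconverted, 529 reported), and 3h against 0h gave 141 in total reads (221 reported). With the block and a surrogate variable, 24h against 0h gave 354 (599 reported), 831 (1751) and 613 (1396), and 24h against 3h gave 60, 248 and 254. With no surrogate variable, 3h against 0h gave 118 in total and 70 in unconverted reads (127 reported), and 24h against 3h gave 373 in T>C reads. With no covariates the T>C counts were 134 (3h, 216 reported) and 384 (24h against 3h), and at 3h 103 in total and 60 in unconverted reads. The edgeR test called 968 genes in T>C reads for 24h and 267 for 24h against 3h. With only 6 libraries the T>C counts were 135 at 3h and 86 at 24h against 3h, total reads gave 371 at 24h and 368 at 24h against 3h, and unconverted reads gave 74, 257 and 318. Leaving out 1 culture gave 5 to 91, 54 to 419 and 4 to 162 genes for T>C reads (3h, 24h and 24h against 3h), 12 to 154, 56 to 1323 and 93 to 840 in total reads, and 17 to 128, 131 to 1026 and 91 to 575 in unconverted reads. The causes were not tested. The block changed the calls of FOXO1, FOXO3 and FOXP1 described with those genes and no other call of the 10. With a surrogate variable beside the block, the 24h call of FOXO1 total reads was also lost (-0.75, DESeq2 adjusted p = 0.155), as were the 24h against 3h calls of FOXO3 in total (-0.33) and unconverted reads (-0.29). Depth limits FOXC2, and FOXD1, FOXF1, FOXF2 and FOXL2 entirely.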
